A study of Mus musculus with 14 samples.

Results

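Translation factors are the proteins that bring an mRNA, the initiator tRNA and the ribosomal subunits together at a start codon and then feed the ribosome with tRNAs while it moves along the message. The 39 genes described here encode cytosolic initiation and elongation factors and the cytoplasmic poly(A)-binding protein, taken by name from the gene column of the deposited tables. They are 39 of the 40853 gene identifiers listed, and all 39 passed the filter on low values, a mean of at least 1 TPM (a level corrected for transcript length and scaled to the same total in each library). No measured value was used to choose them by rule, although they were proposed with earlier results of these data known.

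RNA came from αTN4-1, an immortalised mouse lens epithelial line, in 7 stable derivatives with 1 TGFβ library and 1 control library each, 14 libraries in all. The lines overexpressed CREB as WT-CREB or with 1 change, as S133A-CREB, R314A-CREB or KCREB, or with 2, as S133A/R314A-CREB or S133A-KCREB, and the line they are set against was Vector. Treated cells received 20 ng/mL TGFβ for 24 h in medium lacking serum, and all lines were grown in serum with neomycin. Whether control cultures also lacked serum is not said in the labels, so effects of TGFβ and of serum withdrawal cannot be told apart, and nothing says that cultures were repeated, so p-values measure the spread between lines. The growth protocol names neither line labelled with K. As background, CREB is a transcription factor of the basic leucine zipper family, S133 is the serine whose phosphorylation recruits CBP, R314A is known as a change that weakens binding of CRTC coactivators, and KCREB is known as a dominant-negative form that cannot bind DNA.

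Read across the libraries, between 12545 and 13081 genes reached 1 TPM, and the most frequent ratio of per-base coverage to FPKM, a measure of relative depth, ran from 5.05 to 10.1. Mitochondrially encoded genes held 5.59% to 10.8% of TPM, a share that was lower after TGFβ in 6 of 7 lines. Of 10 lens epithelial markers 7 had a mean of at least 1 TPM, led by Cryab, Pax6 and Sox2, while Foxe3 and Cdh1 were at or near 0. The summed lens markers ran from 445 to 866 TPM in TGFβ libraries and from 556 to 2293 TPM in control libraries. Among 5 muscle markers only Tnnt2 reached a mean of 1 TPM, with 81.2 to 205 TPM in TGFβ libraries and 7.05 to 89.6 TPM in control libraries, and Myod1 was at 0 in all. Macrophage markers reached a mean of 1 TPM in 2 of 5 (Cd68 and Csf1r; summed 4.03 to 14.3 TPM in TGFβ libraries and 2.34 to 7.86 TPM in control libraries), pigment cell markers in 1 of 4 (Mitf; summed 6.74 to 23.6 TPM in TGFβ libraries and 3.81 to 10.5 TPM in control libraries), and endothelial and neuronal or retinal markers in 0 of 4 each. The part of these markers in the results was not tested.

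Translation factors fall into a few machines. eIF2 carries the initiator tRNA and is recharged by eIF2B, a step that stress kinases brake by phosphorylating eIF2; eIF3 is the large scaffold on the small ribosomal subunit; and eIF4E, eIF4G and the helicase eIF4A form the cap-binding complex, which meets the poly(A)-binding protein on the mRNA tail. eIF1, eIF1A and eIF5 police the choice of start codon, eIF5B joins the subunits, and eEF1 and eEF2 drive elongation. Many elongation factor mRNAs, and some initiation factor mRNAs, begin with a terminal oligopyrimidine (TOP) tract through which mTOR controls their own translation, a level of control that RNA amounts do not show.

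CREB binds the cAMP response element, so promoters were read for it. RefSeq promoter windows on GRCm38.p6, from 250 bases before to 50 bases after an annotated start, were matched for 30 of the 39 genes. The windows of Eef2, Eif4a1, Eif4a2 and Eif5 are printed because Eef2 held the only full element, because Eif4a1 and Eif4a2 are paralogs whose TPM ratio was larger with TGFβ in 7 of 7 lines, and because Eif5 had the largest TGFβ difference. Capitals mark the full element TGACGTCA, its 5-base part TGACG on either strand, and the E-box CACGTG, which MYC and related factors bind. They lie at chr10:81176381-81176680 (plus strand) for Eef2, chr11:69672374-69672673 (minus strand) for Eif4a1, chr16:23107218-23107517 (plus strand) for Eif4a2 and chr12:111537851-111538150 (plus strand) for Eif5.
Eef2: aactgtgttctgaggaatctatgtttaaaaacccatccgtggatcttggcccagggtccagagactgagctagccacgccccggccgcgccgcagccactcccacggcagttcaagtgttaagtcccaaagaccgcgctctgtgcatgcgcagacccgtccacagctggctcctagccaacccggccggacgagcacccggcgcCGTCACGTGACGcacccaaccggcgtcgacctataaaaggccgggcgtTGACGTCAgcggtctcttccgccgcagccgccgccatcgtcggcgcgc
Eif4a1: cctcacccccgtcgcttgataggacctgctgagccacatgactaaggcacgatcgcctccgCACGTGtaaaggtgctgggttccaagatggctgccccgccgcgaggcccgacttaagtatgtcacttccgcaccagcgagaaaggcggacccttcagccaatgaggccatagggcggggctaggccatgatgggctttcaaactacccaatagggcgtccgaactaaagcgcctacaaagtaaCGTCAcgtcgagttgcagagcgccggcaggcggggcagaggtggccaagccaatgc
Eif4a2: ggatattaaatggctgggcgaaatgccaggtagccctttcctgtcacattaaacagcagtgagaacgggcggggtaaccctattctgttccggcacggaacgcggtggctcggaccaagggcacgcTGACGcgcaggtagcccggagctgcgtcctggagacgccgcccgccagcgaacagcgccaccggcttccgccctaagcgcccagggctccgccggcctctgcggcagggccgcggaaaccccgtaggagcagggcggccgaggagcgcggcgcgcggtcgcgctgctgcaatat
Eif5: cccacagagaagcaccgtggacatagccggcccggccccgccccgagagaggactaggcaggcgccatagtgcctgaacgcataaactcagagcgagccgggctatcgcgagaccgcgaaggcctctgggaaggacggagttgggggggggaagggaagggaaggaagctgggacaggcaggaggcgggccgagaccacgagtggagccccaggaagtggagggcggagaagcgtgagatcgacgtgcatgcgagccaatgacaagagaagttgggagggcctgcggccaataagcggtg
The Eef2 window held 1 full element, 4 matches to TGACG on the 2 strands together, of which 2 lie inside the full element, and an E-box that overlaps the other 2. The window of Eif4a1 held 1 match to TGACG and 1 E-box, that of Eif4a2 held 1 match to TGACG, and that of Eif5 held none of the 3 motifs. A gene counted as holding a motif if any of its windows did, on either strand. Eif5a had 6 windows, and Eif4e and Eif4g3 had 2 each. The full element stood in 1 of 30 genes (3.33%), against 3.60% of the 9918 tested genes with a window. TGACG stood in 13 of 30 (43.3%), against 35.6%, and the E-box in 9 of 30 (30%), against 11.7%. Of the 19 matched genes that rose with TGFβ, 0 held the full element, 8 held TGACG and 5 held the E-box, and of the 11 others 1, 5 and 4 did. These are matches of letters in a fixed window and do not show binding.

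After TGFβ, most translation factor mRNAs were more abundant by a small amount. In all, 24 of 39 rose (61.5%), 1 fell (Eif4g3) and 14 did not pass the test, where 24.1% of the 12927 genes in the fit rose and 21.4% fell. Calls are those of limma, blocked by line, at a Benjamini-Hochberg adjusted p under 0.05 over the whole table, and differences are TGFβ minus control on the log2(TPM + 1) scale with their SE. In bulk RNA a change in the mix of cells and a change of RNA per cell cannot be told apart. The median difference was 0.19, against 0.017 over all genes tested. No member reached 2-fold in the fit, where 2.64% of all genes tested were called and did. By role, 6 of 7 eIF2 and eIF2B genes rose, 8 of 12 eIF3 genes, 4 of 6 start codon, subunit joining and eIF5A genes, 4 of 9 eIF4 and poly(A)-binding genes, and 2 of 5 elongation genes. The TGFβ library was above its control in all 7 lines for 25 genes, where 18.5% of all genes tested were, and below it in all 7 for 1, where 15.9% were. For Eif3b, Eif4a1, Eif1, Eif5 and Eif5a every TGFβ library lay above every control library, a separation seen in 1.45% of all genes tested; none of the 39 was separated the other way, where 0.905% of all genes tested were.

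**Figure D1:**
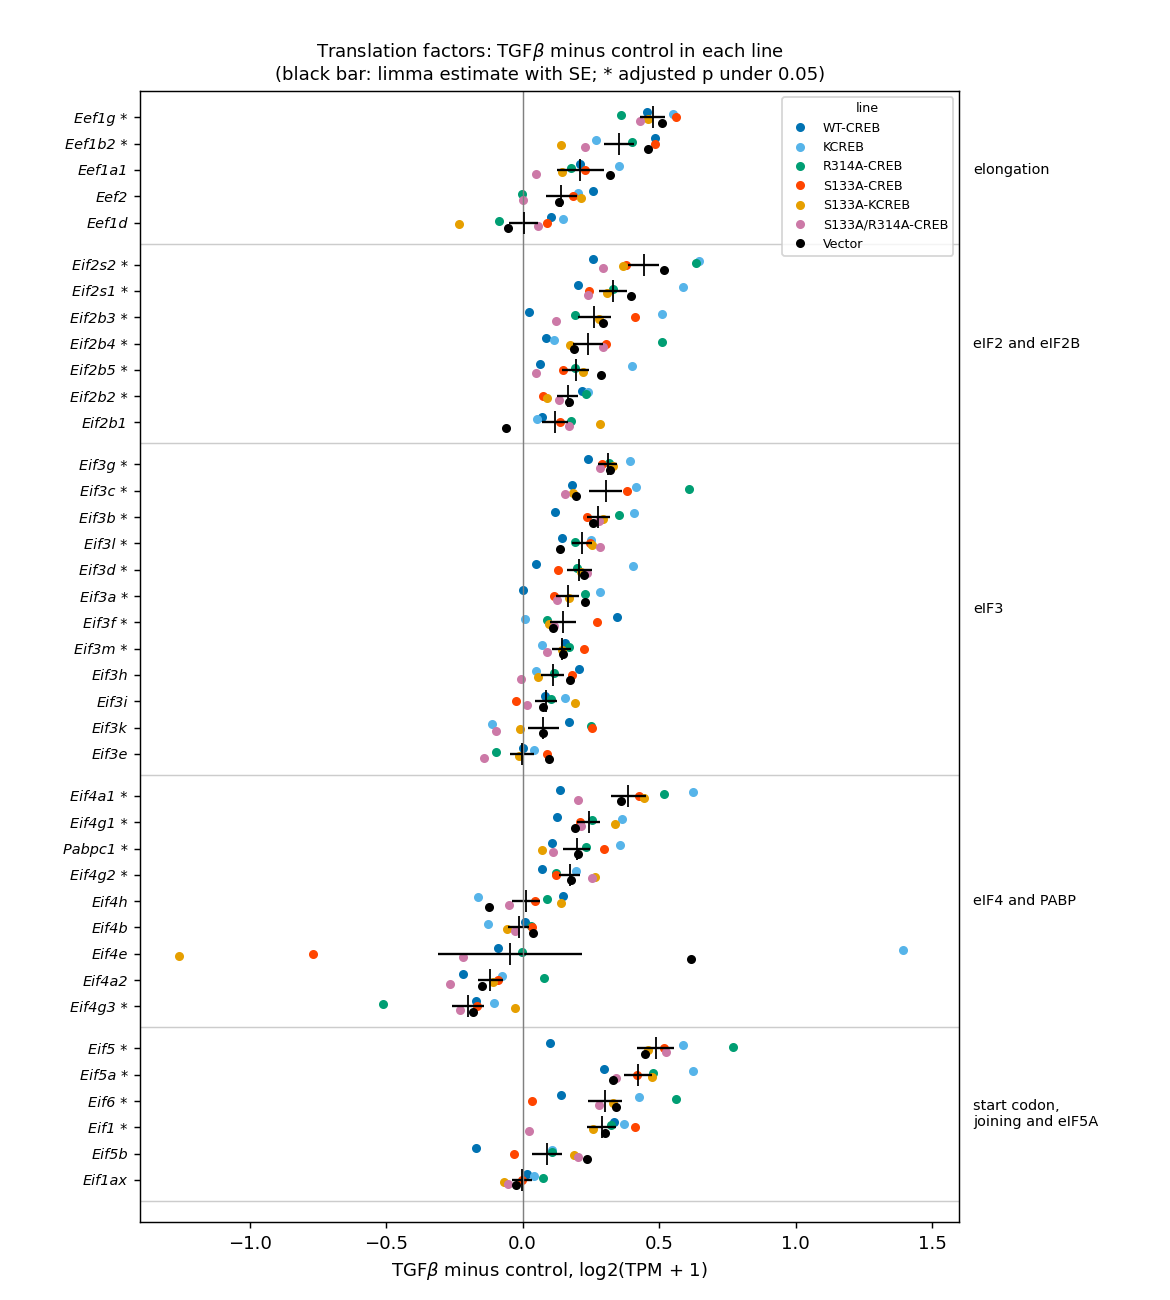
TGFβ minus control difference of each translation factor gene on the log2(TPM + 1) scale, with 1 coloured point per line, the limma estimate as a tick and its SE as a bar; genes are ordered within 5 role groups and an asterisk marks an adjusted p under 0.05. Most points lie right of 0, and Eif4e alone has points past 1 and below -1.

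Summed over all 39 genes, translation factor mRNA held 40435 ± 4302 TPM in TGFβ libraries and 34743 ± 3862 TPM in control libraries (SD, n = 7 each). That was 4.04% of all TPM with TGFβ and 3.47% in control. The TGFβ library had the larger sum in 7 of 7 lines, by a factor of 1.06 in the S133A/R314A-CREB line to 1.26 in the KCREB line, with a median of 1.16. On average Eef1a1 alone made up more of the sum than all other members together. Without it the sums were 18978 ± 795 TPM in TGFβ libraries and 16223 ± 762 TPM in control libraries, and the ratio within lines ran from 1.10 to 1.24. Among the role groups the start codon, joining and eIF5A genes had the highest median ratio, 1.28, followed by eIF2 and eIF2B with 1.21 and elongation factors with 1.17. For eIF3 and eIF4 with the poly(A)-binding protein the median ratios were both 1.13. The summed eIF3 genes ran from 4387 to 4735 TPM in TGFβ libraries and from 3808 to 4339 TPM in control libraries. The start codon, joining and eIF5A group ran from 3104 to 3636 TPM with TGFβ and from 2319 to 2696 TPM in control. The sums of eIF3 and of the start codon, joining and eIF5A group did not overlap between treatments. Those of the other role groups and of all 39 genes did. The lowest TGFβ sum and the highest control sum were 698 and 743 TPM for eIF2 and eIF2B. They were 4896 and 4989 TPM for eIF4 with the poly(A)-binding protein, 18662 and 27065 TPM for elongation, and 32073 and 39345 TPM for all members.

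**Figure D2:**
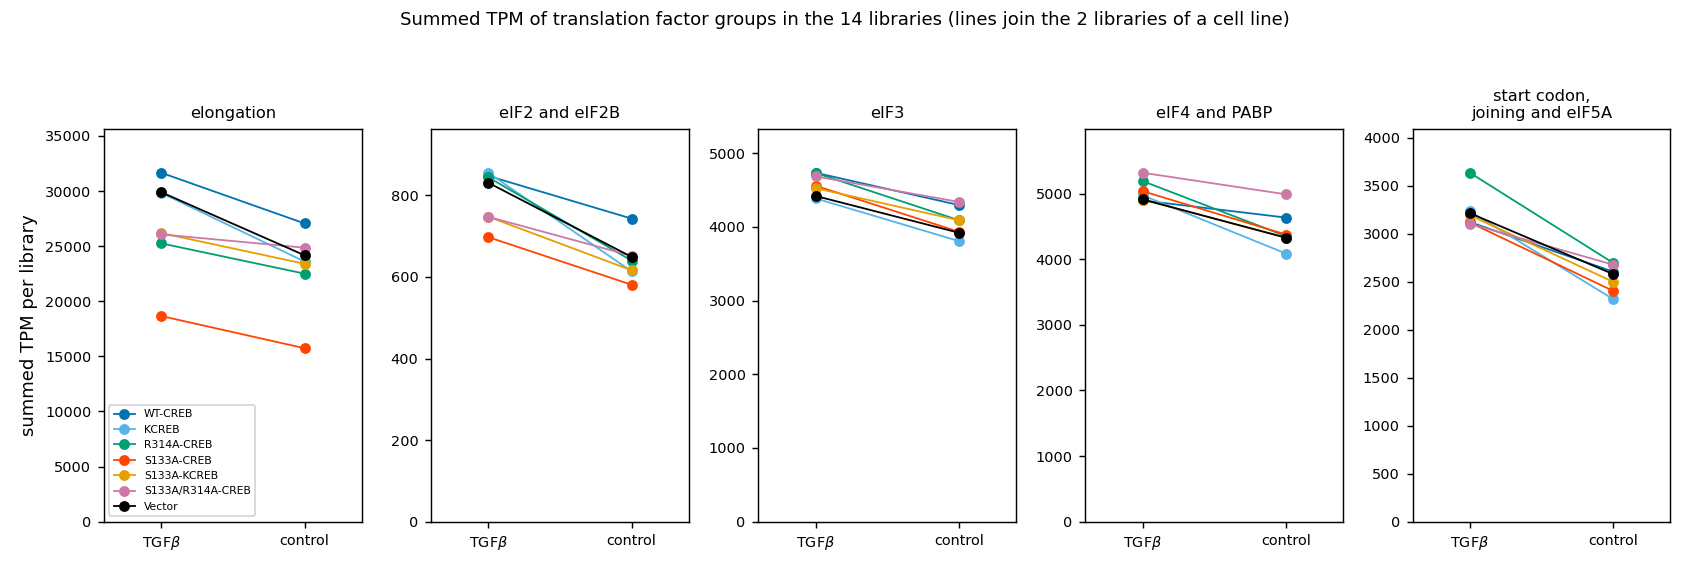
Summed TPM of the 5 role groups in each library, TGFβ on the left and control on the right of each panel, with a line joining the libraries of each cell line. All joining lines slope down to control, and the sums of eIF3 and of the start codon, joining and eIF5A group do not overlap. The S133A-CREB line has the lowest elongation factor sums, 18662 TPM with TGFβ and 15739 TPM in control.

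Per line, the median difference of the 39 genes ran from 0.12 in WT-CREB and 0.13 in S133A/R314A-CREB to 0.27 in KCREB, where the medians of all genes tested ran from -0.0077 to 0.050. Between 30 and 35 of the 39 genes had the higher value in the TGFβ library of a line, with the fewest in S133A/R314A-CREB and the most in WT-CREB. These shares, 76.9% to 89.7%, stood beside 49.0% to 55.0% of all genes tested. In TPM no member but Eif4e differed 2-fold within a line: it did so in KCREB, where 6.58% of the 10530 genes averaging 5 TPM or more passed that fold, and in S133A-KCREB, where 3.84% did. Coverage of Eif4e scaled to library depth, given with that gene, was not 2-fold apart in either line. The share of those genes past 2-fold in lines with 0 members was 1.13% in WT-CREB, 3.87% in R314A-CREB, 2.12% in S133A-CREB, 4.25% in S133A/R314A-CREB and 4.86% in Vector.

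Eef1a1 and Eef2 had the highest mean TPM of all members, and 2 of the 3 subunits of the eEF1B exchange complex rose. Eef1a1 encodes eEF1A1, which delivers tRNAs to the ribosome, and had 14448, 21029 and 26447 TPM as its lowest, median and highest value in TGFβ libraries, against 12321, 18939 and 22888 TPM in control libraries. The S133A-CREB line held the lowest value under both treatments and WT-CREB the highest. Within lines the TGFβ library was above its control in 7 of 7, by 0.21 ± 0.09 (log2 difference, SE), but the ranges overlapped widely and the gene did not pass (adjusted p = 0.0673). It passed with the 5 TPM filter (adjusted p = 0.0196), with FPKM (0.0334), without the intensity trend (0.00898), with the exact Wilcoxon signed-rank test (0.0455) and with depth-scaled coverage (0.0314), which is the deposited per-base coverage divided by the library's most frequent coverage-to-FPKM ratio (chosen after seeing the data).

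Eef1g, the gamma subunit of the exchange factor that recharges eEF1A, ranged over 1040, 1301 and 1767 TPM (lowest, median, highest) with TGFβ and over 703, 1001 and 1205 TPM in control. KCREB was highest and S133A-CREB lowest under each treatment, and the ranges overlapped. The log2 difference was 0.48 ± 0.04 (SE; adjusted p = 1.56e-04), between 0.36 and 0.56 in the single lines. Eef1b2, the beta subunit with exchange activity, rose by 0.35 ± 0.05 (adjusted p = 0.00105). Eef1d, the delta subunit, had 258, 309 and 343 TPM with TGFβ and 242, 312 and 339 TPM in control. The treatments overlapped throughout, 4 lines were above and 3 below, and its difference of 0.0034 ± 0.05 (adjusted p = 0.963) turned negative under median-of-ratios scaling, quantile normalization, FPKM and removal of mitochondrial genes. The ratio of Eef1g to Eef1d TPM was 4.44 ± 0.47 with TGFβ and 3.20 ± 0.38 in control (SD, n = 7 each), larger with TGFβ in 7 of 7 lines. Eef1g and Eef1d had the largest and the smallest difference of the elongation genes, so this ratio restates those differences. The ratio of Eef1g to Eef1b2 TPM was 2.11 ± 0.25 with TGFβ and 1.93 ± 0.15 in control, larger with TGFβ in 5 of 7 lines. Eef2, the translocase, differed by 0.14 ± 0.06 and did not pass (adjusted p = 0.0643); it passed with the 5 TPM filter (0.0433), quantile normalization (0.0169) and no intensity trend (0.0444).

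Both eIF2 genes of the set rose, and so did 4 of the 5 eIF2B genes. Eif2s2, the beta subunit of eIF2, had 267, 324 and 416 TPM (lowest, median, highest) with TGFβ and 207, 222 and 348 TPM in control. The WT-CREB line stood highest under both treatments, and its control library lay above the TGFβ libraries of 4 of the other 6 lines, so the ranges overlapped. The log2 difference was 0.44 ± 0.06 (SE; adjusted p = 5.17e-04), positive in 7 of 7 lines. Eif2s1, the alpha subunit that the stress kinases phosphorylate, rose by 0.33 ± 0.05 (adjusted p = 0.00106). The ratio of Eif2s2 to Eif2s1 TPM was 2.91 ± 0.34 with TGFβ and 2.71 ± 0.40 in control (SD, n = 7 each).

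In eIF2B, the exchange factor of eIF2, Eif2b3, Eif2b4, Eif2b5 and Eif2b2 rose by 0.26, 0.24, 0.19 and 0.17 on the log2 scale (adjusted p = 0.00734, 0.00760, 0.0104 and 0.00718 in that order). Eif2b5 encodes the catalytic epsilon subunit. Eif2b1, the regulatory alpha subunit, had 46.6, 50.2 and 58.2 TPM with TGFβ and 38.9, 46.7 and 53.4 TPM in control. The ranges overlapped, the Vector line went the other way from the other 6, and the difference of 0.12 ± 0.05 did not pass (adjusted p = 0.0673); without the Vector line it was 0.15 and passed (adjusted p = 0.0410).

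eIF3 has core subunits and a shell around them, and 8 of its 12 genes in the set rose. Eif3g, an RNA-binding subunit, had 242, 267 and 314.4 TPM with TGFβ and 196, 217 and 257 TPM in control. S133A-CREB was highest under both treatments, and its control library lay above the TGFβ libraries of WT-CREB and S133A-KCREB. The log2 difference of 0.31 ± 0.03 (SE; adjusted p = 2.93e-04) varied little, from 0.24 to 0.39 over the lines. Eif3c and Eif3b, scaffold subunits, rose by 0.30 ± 0.06 and 0.28 ± 0.04 (adjusted p = 0.00385 and 0.00101). Eif3b ran from 317 to 370 TPM with TGFβ and from 239 to 306 TPM in control, with no overlap. Smaller rises were found for Eif3l (0.22), Eif3d (0.21), the cap-contacting subunit, Eif3a (0.16), the largest scaffold subunit, Eif3f (0.15) and Eif3m (0.14). The call of Eif3f (adjusted p = 0.0315) was lost without the Vector, WT-CREB, S133A-CREB, S133A-KCREB or S133A/R314A-CREB line (adjusted p = 0.0577, 0.0687, 0.0796, 0.0521 and 0.0559 in that order), with no filter (0.0607), with median-of-ratios scaling (0.0702) and with quantile normalization (0.0854). Quantile normalization also ended the call of Eif3m (adjusted p = 0.0641).

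Eif3h, the eIF3 mRNA with the highest mean TPM over the 14 libraries, had 523, 639 and 832 TPM with TGFβ and 506, 614 and 721 TPM in control. WT-CREB was highest and KCREB lowest under both treatments, the ranges overlapped, and the difference of 0.11 ± 0.04 did not pass (adjusted p = 0.0569). Eif3c had the higher line mean in 4 of 7 lines, Vector (588 TPM, against 550 TPM for Eif3h), KCREB (538 against 515), S133A-CREB (623 against 607) and S133A/R314A-CREB (736 against 628). Eif3e had 335, 438 and 466 TPM with TGFβ and 325, 412 and 465 TPM in control, with KCREB lowest under both. Its difference was -0.0028 ± 0.04 (adjusted p = 0.963), with 4 lines above and 3 below, and its sign turned without the R314A-CREB line (0.013) or the S133A/R314A-CREB line (0.021). Eif3i (0.086) and Eif3k (0.076) did not pass either. Eif3h and Eif3k had the highest and the lowest mean TPM of the 12 eIF3 genes over the 14 libraries. The ratio of Eif3h to Eif3k TPM was 3.23 ± 0.36 with TGFβ and 3.16 ± 0.40 in control (SD, n = 7 each).

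The eIF4 and poly(A)-binding genes moved in different ways, with 4 higher, 1 lower and 4 not passing. Eif4a1, the main helicase that unwinds the mRNA leader, had 1249, 1317 and 1664 TPM (lowest, median, highest) with TGFβ and 867, 1093 and 1198 TPM in control. Every TGFβ library lay above every control library, and the difference was 0.39 ± 0.06 (SE; adjusted p = 0.00152), from 0.14 in WT-CREB to 0.62 in KCREB. Eif4a2, its paralog, had 305, 332 and 415 TPM with TGFβ and 315, 354 and 487 TPM in control. KCREB and S133A/R314A-CREB were highest under both treatments, and the TGFβ library was below its control in 6 of 7 lines, R314A-CREB being the exception. The Eif4a2 difference of -0.12 ± 0.05 did not pass (adjusted p = 0.0641), and passed as lower with median-of-ratios scaling (-0.14, 0.0315), quantile normalization (-0.16, 0.0184), without mitochondrial genes (-0.13, 0.0412), with depth-scaled coverage (-0.17, 0.00937) and without the R314A-CREB line (-0.15, 0.0272). The ratio of Eif4a1 to Eif4a2 TPM was 4.06 ± 0.75 with TGFβ and 2.88 ± 0.65 in control (SD, n = 7 each), larger with TGFβ in 7 of 7 lines. How reads shared by paralogs or pseudogenes were counted is not given in the sources used here, so levels of such genes are uncertain to that extent.

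**Figure D3:**
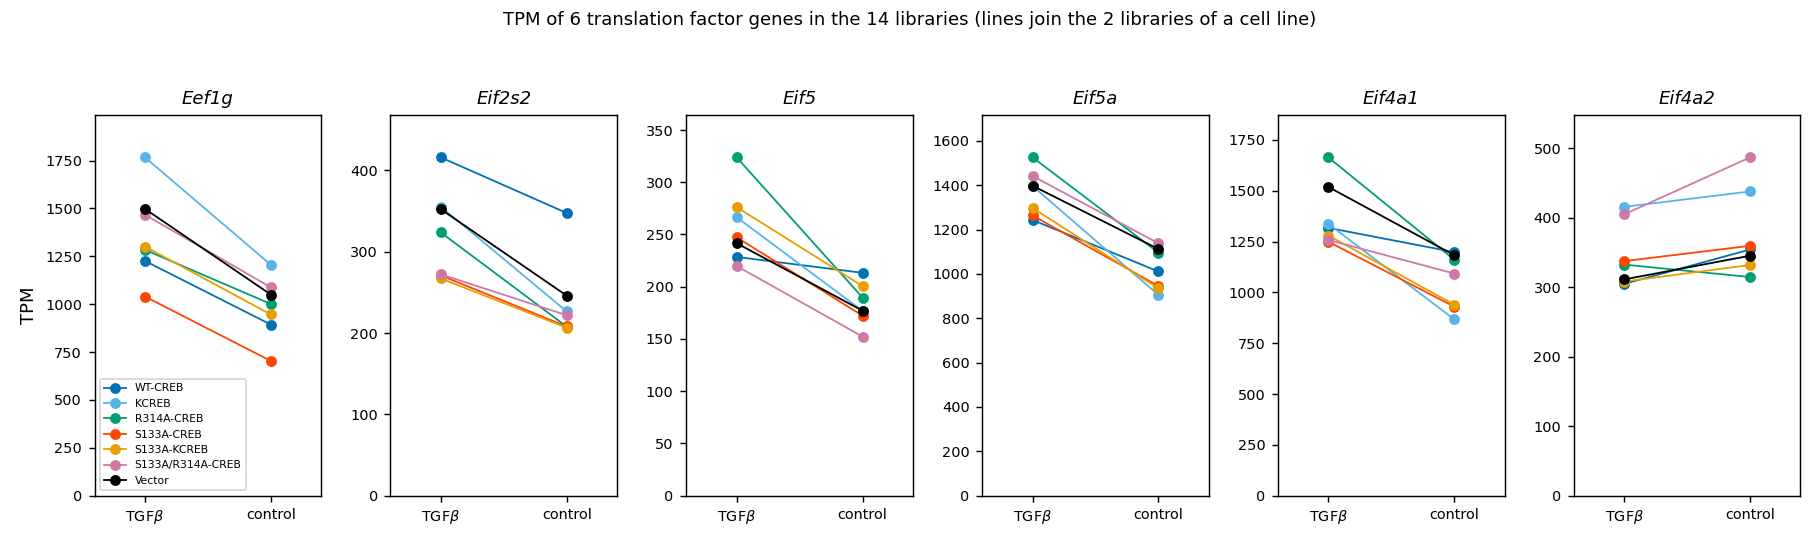
TPM of Eef1g, Eif2s2, Eif5, Eif5a, Eif4a1 and Eif4a2 in each library, TGFβ on the left and control on the right, with a line joining the libraries of each cell line. The first 5 genes slope down to control in all 7 lines, and Eif4a2 slopes up to control in 6 of 7.

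Eif4g1, the main eIF4G scaffold, rose by 0.24 ± 0.04 (adjusted p = 0.00190), Eif4g2, a relative that does not bind the cap-binding protein, by 0.17 ± 0.04 (0.00718), and Pabpc1, the poly(A)-binding protein, by 0.20 ± 0.05 (0.0107), a call lost with quantile normalization (adjusted p = 0.0547). Eif4b and Eif4h, both helpers of the helicase, had differences of -0.014 and 0.012 and did not pass; the sign of Eif4h turned under median-of-ratios scaling, quantile normalization and removal of mitochondrial genes.

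Eif4g3, the other eIF4G scaffold, was the only member that fell, and its level in the WT-CREB line stood far below that in the other lines. It had 8.04, 40.7 and 69.8 TPM (lowest, median, highest) with TGFβ and 9.18, 46.7 and 71.2 TPM in control. WT-CREB was lowest by far and S133A-KCREB highest under both treatments, and the ranges overlapped almost fully. Within lines TGFβ was below control in 7 of 7, by -0.20 ± 0.06 (SE; adjusted p = 0.0202), with -0.51 in R314A-CREB and -0.23 to -0.027 in the others; over the fits that leave out 1 line the adjusted p ran from 0.0212 to 0.0494. Against Vector, the WT-CREB line differed by -2.22 with TGFβ and -2.23 in control. Depth-scaled coverage was 0.403 in WT-CREB against 2.11 in Vector with TGFβ, and 0.494 against 2.38 in control. The nearest tested genes on each side of Eif4g3 on chromosome 4 were chosen after these values were seen, and genes below the filter were passed over. Rap1gap, Ece1, Hp1bp3, Ddost and Pink1 differed between WT-CREB and Vector by -0.32 to -0.055 with TGFβ and by -0.76 to -0.16 in control. Alpl differed by -1.52 with TGFβ and -3.66 in control. Alpl had 0 TPM in WT-CREB against 1.87 TPM in Vector with TGFβ, and 0.0717 TPM against 12.5 TPM in control. The TPM ratio of Eif4g1 to Eif4g3 was 19.9 ± 16.2 with TGFβ and 15.1 ± 13.4 in control (SD, n = 7 each), with the largest values in WT-CREB, 54.9 with TGFβ and 44.1 in control.

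Eif4e, the cap-binding protein, had the widest scatter of all members in its differences between lines, and its pattern was not the same in TPM and in coverage. It had 31.5, 97.5 and 127 TPM (lowest, median, highest) with TGFβ and 44.4, 77.0 and 148 TPM in control. Differences within lines ran from 1.39 in KCREB and 0.62 in Vector to -0.77 in S133A-CREB and -1.26 in S133A-KCREB, and their mean of -0.047 ± 0.26 (SE) did not pass (adjusted p = 0.900). The sign of that mean turned without the S133A-CREB line (0.074) or the S133A-KCREB line (0.16). Its ratio of coverage to FPKM, divided by the library's most frequent ratio, ran from 0.179 to 0.476 over the 14 libraries, a span of 2.66-fold, where no other member spanned more than 1.13-fold. The 5 libraries with a ratio of 0.471 to 0.476 were those with the 5 lowest TPM values, 31.5 to 58.6. Depth-scaled coverage of Eif4e, a check chosen after its values were seen, ran from 4.70 to 8.05 with TGFβ and from 4.57 to 9.11 in control, a 1.99-fold span against 4.70-fold in TPM. In KCREB it was 7.93 with TGFβ and 6.70 in control, and in S133A-KCREB 4.70 with TGFβ and 4.57 in control, where TPM was lower with TGFβ. Neither line differed 2-fold on this scale. The cause of the difference between these measures was not tested.

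**Figure D4:**
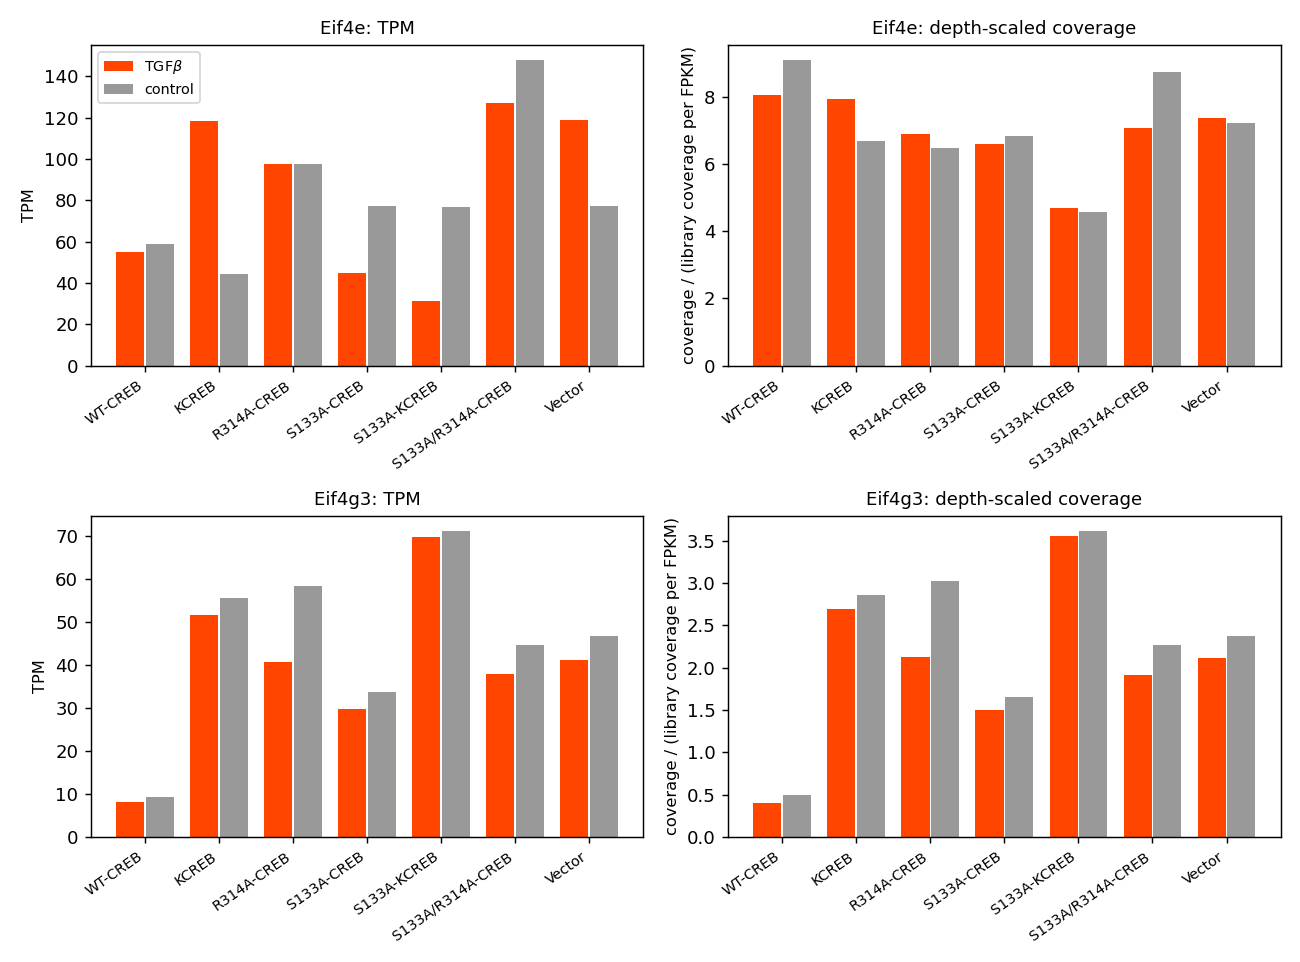
Eif4e (top) and Eif4g3 (bottom) in each line, as TPM (left) and as coverage divided by the library's most frequent ratio of coverage to FPKM (right), with the TGFβ bar left of the control bar. Eif4e varies 4.70-fold in TPM and 1.99-fold in coverage, while Eif4g3 is lowest in WT-CREB on both scales.

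Among the genes of start codon choice, subunit joining and eIF5A, 4 of 6 rose. Of these 4, 3 showed no overlap between treatments, Eif5a among them. Eif5, the GTPase-activating protein of eIF2 at the start codon, had 220, 247 and 324 TPM (lowest, median, highest) with TGFβ and 152, 177 and 213 TPM in control. All TGFβ libraries were above all controls, R314A-CREB was highest with TGFβ, and the difference of 0.49 ± 0.07 (SE; adjusted p = 7.46e-04) ran from 0.10 in WT-CREB to 0.77 in R314A-CREB. Eif5a, the hypusine-bearing factor that helps the ribosome through difficult peptide bonds, had 1244, 1397 and 1526 TPM with TGFβ and 906, 1011 and 1138 TPM in control. Its ranges were also apart, and it rose by 0.42 ± 0.05 (adjusted p = 4.05e-04).

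Eif1, the gatekeeper of start codon choice, rose by 0.29 ± 0.05 (adjusted p = 0.00257), with 1121 to 1343 TPM in TGFβ libraries and 924 to 1103 TPM in control libraries. Eif6, which keeps the ribosomal subunits apart, rose by 0.30 ± 0.06 (adjusted p = 0.00385). Eif5b, the subunit-joining GTPase, had a difference of 0.091 ± 0.055 and did not pass (adjusted p = 0.204). Eif1ax, the X-linked gene of eIF1A, had 68.3, 82.1 and 100.1 TPM with TGFβ and 68.4, 83.6 and 97.2 TPM in control. The treatments overlapped fully, KCREB was highest and S133A-CREB lowest under both, and the difference was -0.0025 ± 0.04 (adjusted p = 0.961), with its sign turned without the Vector, S133A-KCREB or S133A/R314A-CREB line (0.0014, 0.0085 and 0.0059 in that order).

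Of 10 members known to be TOP mRNAs (Eef1a1, Eef1b2, Eef1d, Eef1g, Eef2, Eif3e, Eif3f, Eif3h, Eif4b and Pabpc1) 4 rose, with a median difference of 0.14. Of the other 29 members 20 rose and 1 fell, with a median of 0.21. Among all genes tested 24.1% rose and 21.4% fell, with a median of 0.017. The difference between these sets was not tested, and the choice of TOP mRNAs rests on general knowledge of them.

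Around the members, a list of 59 further genes of the pathway (other subunits and paralogs, eIF2 kinases and phosphatase subunits, regulators of eIF4 and the poly(A)-binding protein, the mTOR pathway, and regulators of elongation and termination) was read in the same fit. Of the 58 that were tested, 28 rose (48.3%), 8 fell (13.8%) and 22 did not pass, beside 24.1% rising and 21.4% falling among all genes tested. The median was 0.16; Eef1a2 was below the filter. Other subunits and paralogs had 10 of 18 higher and 1 lower, and elongation regulators and termination factors 8 of 12 higher and 0 lower. In the mTOR group 2 of 10 rose and 4 fell. The rises were those of Rheb (0.22, adjusted p = 0.00755) and Mlst8 (0.15, 0.0137). Besides Deptor and Tsc2, given below, Mtor itself (-0.18, adjusted p = 0.0299) and Tsc1 (-0.21, 0.0111) fell. Deptor was a low gene, with a mean of 5.20 TPM over the 14 libraries. Among eIF4 regulators 5 of 12 rose and 2 fell, and among eIF2 kinases and phosphatase subunits 3 of 6 rose and 1 fell.

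The largest rises were those of Eif1ad (0.61), a relative of eIF1A, Ppp1r15a (0.56), the inducible GADD34 subunit that removes phosphate from eIF2, Eif2ak3 (0.55), the endoplasmic reticulum stress kinase PERK, Denr (0.54), a factor of reinitiation and subunit recycling, and Eef1e1 (0.48), a component of the multi-tRNA synthetase complex. Their adjusted p-values were 4.36e-04, 0.00410, 4.45e-04, 7.36e-05 and 0.00209 in that order. The largest falls were those of Mknk2 (-0.76), a kinase of eIF4E, Pdcd4 (-0.69), an inhibitor of the eIF4A helicase, Eif2ak4 (-0.49), the amino acid-sensing kinase GCN2, Deptor (-0.32), an inhibitor of mTOR, and Tsc2 (-0.26), a brake on mTOR activation (adjusted p = 5.93e-04, 0.00760, 5.96e-04, 0.0410 and 8.97e-04 in that order). Mknk2 had 96.9, 134 and 152 TPM (lowest, median, highest) with TGFβ and 126, 242 and 350 TPM in control. Pdcd4 had 13.1, 32.9 and 42.3 TPM with TGFβ and 32.1, 45.4 and 107 TPM in control. Both pairs of ranges overlapped, and TGFβ was lower in 7 of 7 lines for Mknk2 and in 6 of 7 for Pdcd4.

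Eif4ebp1, the repressor that holds eIF4E, rose by 0.24 ± 0.08 (SE; adjusted p = 0.0358), a call lost without the Vector, WT-CREB, KCREB, R314A-CREB or S133A-CREB line (adjusted p = 0.0808, 0.0571, 0.0860, 0.0928 and 0.0517 in that order), with no filter (0.102), with quantile normalization (0.0542) and with the exact Wilcoxon signed-rank test (0.0942). Eef2k, the kinase that inhibits eEF2, had a difference of -0.11 ± 0.12 and did not pass (adjusted p = 0.493). The call of Deptor was lost without the Vector, R314A-CREB, S133A-CREB, S133A-KCREB or S133A/R314A-CREB line (adjusted p = 0.0634, 0.0789, 0.104, 0.101 and 0.103 in that order), with no filter (0.117), with quantile normalization (0.0773), with the exact Wilcoxon signed-rank test (0.0942) and with depth-scaled coverage (0.0539). The call of Pdcd4 was lost with the exact Wilcoxon signed-rank test (adjusted p = 0.0699). The number of falls in the list was 5 without the Vector, R314A-CREB or S133A/R314A-CREB line.

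**Figure D5:**
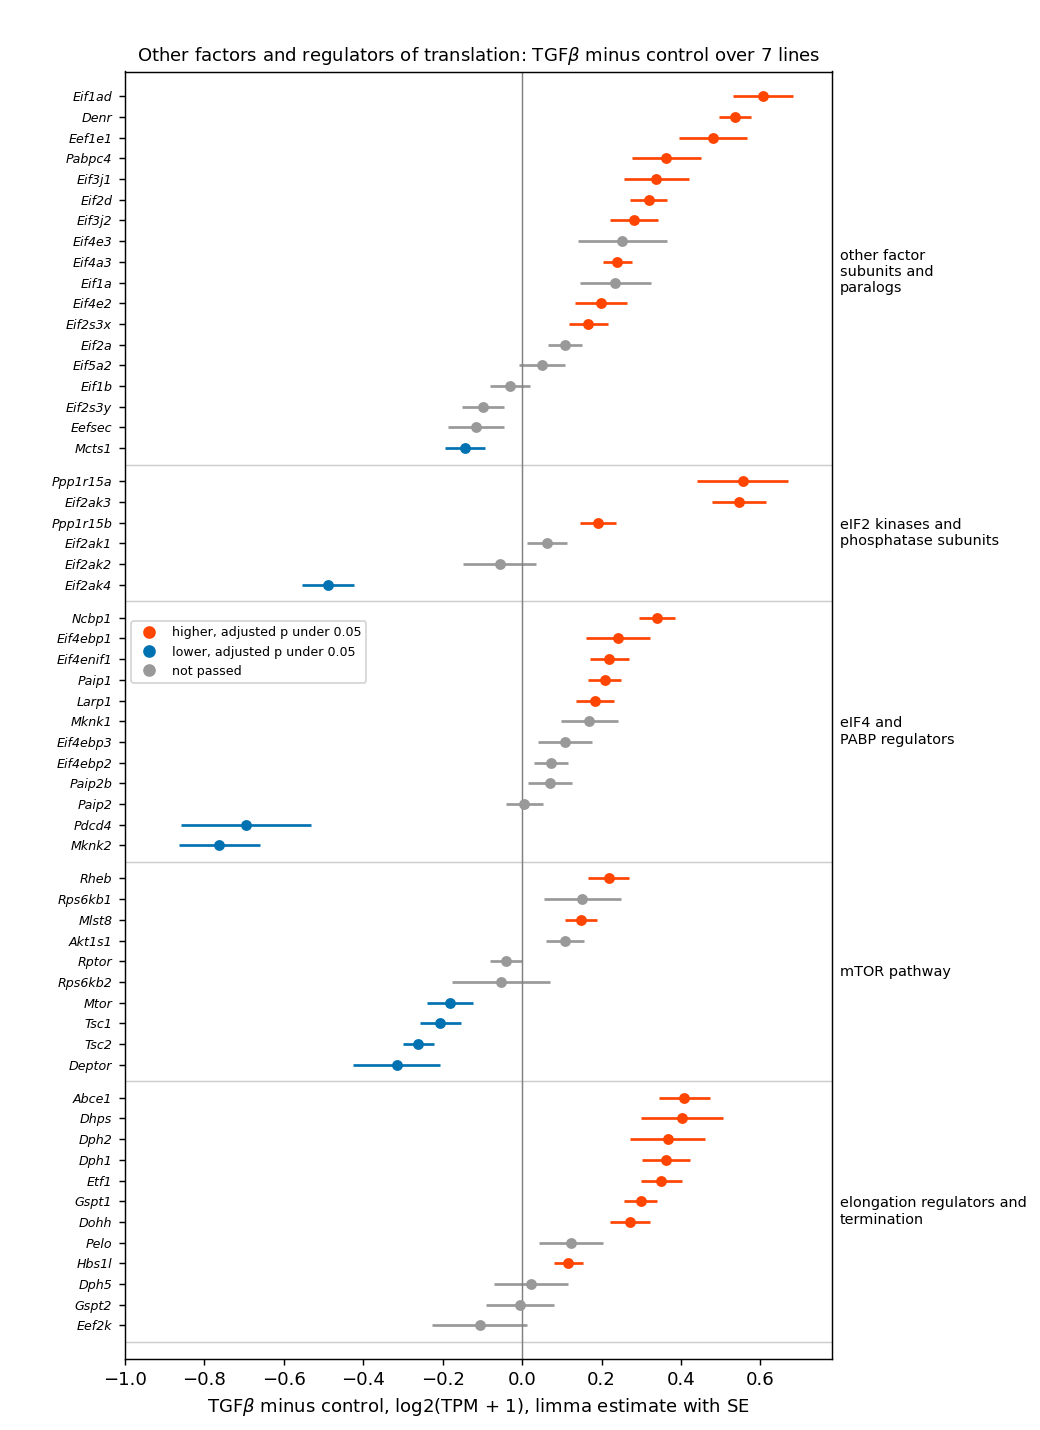
TGFβ minus control difference of the 58 tested pathway genes on the log2(TPM + 1) scale, as limma estimates with their SE, ordered within 5 groups and coloured by direction where the adjusted p was under 0.05. Elongation regulators and termination factors hold 8 rises and 0 falls, and the mTOR group holds 4 of the 8 falls.

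Between the CREB lines no member passed. In the limma fit on line means of the 6 CREB lines, 0 of 39 members and 0 of 12927 genes were called for S133A, K or R314A. With S133A, K and R314A fitted together on 6 line means, power was low, so a lack of calls does not show a lack of effect. At an unadjusted p under 0.05 there were 1, 3 and 2 members and 753, 1310 and 821 genes (5.83%, 10.1% and 6.35% of all tested) in that order. The members with the smallest p for S133A against lines that keep the serine were Eif3m (-0.44 ± 0.13, adjusted p = 0.809) and Eif4g1 (0.42 ± 0.17, adjusted p = 0.809). For K against the lines with neither K nor R314A they were Eif4g3 (1.82 ± 0.49, adjusted p = 0.355) and Eif4g2 (0.48 ± 0.16, adjusted p = 0.443), and for R314A against the same lines Eif4e (0.99 ± 0.27, adjusted p = 0.754) and Eif4g3 (1.37 ± 0.49, adjusted p = 0.781). Those lines are S133A-CREB and WT-CREB, the line with the low Eif4g3 level. For the S133A by TGFβ interaction 0 members and 0 genes were called, and at an unadjusted p under 0.05 there were 1 member, Eif4e (-1.18 ± 0.46, adjusted p = 0.999), and 455 genes (3.52%). The Eif4e estimates for R314A and for the interaction are in TPM. Its depth-scaled coverage was lower in R314A-CREB (6.90 with TGFβ, 6.49 in control) than in WT-CREB (8.05 and 9.11). That coverage was higher in S133A/R314A-CREB (7.07 and 8.74) than in S133A-CREB (6.59 and 6.83).

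Set against Vector under the same treatment, with 1 library on each side and no test, few members passed 2-fold. In WT-CREB these were 2 members with TGFβ, Eif4g3 and Eif4e (7.34% of all genes compared), and 1 in control, Eif4g3 (10.2%). Eif4e alone did so in the TGFβ libraries of S133A-CREB (-1.38; 6.54%) and S133A-KCREB (-1.88; 5.32%). These Eif4e differences are in TPM. Its depth-scaled coverage with TGFβ was 8.05 in WT-CREB, 6.59 in S133A-CREB and 4.70 in S133A-KCREB, against 7.38 in Vector, so that none was 2-fold apart and WT-CREB lay above Vector. The other comparisons with Vector had 0 members past 2-fold. The share of all genes compared past 2-fold was there 2.65% in KCREB, 3.68% in R314A-CREB and 4.11% in S133A/R314A-CREB with TGFβ, and 2.74% in KCREB, 3.49% in R314A-CREB, 7.26% in S133A-CREB, 5.94% in S133A-KCREB and 4.96% in S133A/R314A-CREB in control. The median difference of the 39 genes from Vector ran from -0.067 in S133A-CREB to 0.076 in R314A-CREB, both with TGFβ. These comparisons share the Vector libraries. Line means of Eef1a1 ran from 13384 TPM in S133A-CREB to 24668 TPM in WT-CREB, and those of Eef2 from 2213 TPM in S133A-CREB to 3625 TPM in KCREB.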

How the data were processed

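RNA of 14 cultures was sequenced on a DNBSEQ-T7 instrument after library preparation with a dual-mode mRNA kit, per the labels' protocols, and the titles of the samples gave line and treatment. The submitters' processing notes name GRCm39, STAR 2.7.6a, StringTie 2.0.4 and edgeR without their roles. Annotation release and strandedness are given in none of the sources used, so overlapping antisense transcripts cannot be told apart. Each deposited table gives, per the file headers, the per-base coverage (signal), FPKM and TPM of each gene. The deposited TPM sums to 1000000 in each library, and TPM and FPKM were normalized by the authors. No read counts are given, so no counting interval is stated. Identifiers on several lines of a file were summed, which touched 0 of the 39 members.

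The 12927 genes averaging 1 TPM or more were fitted as log2(TPM + 1), a scale that understates the change of low genes. The fit used limma 3.58.1 (R 4.3.3), a moderated variance with intensity trend, and line as a blocking term. Adjusted p-values are Benjamini-Hochberg values over all genes tested, two-sided, with a threshold of 0.05. S133A, K and R314A were fitted together on the means of the TGFβ and control library of each of the 6 CREB lines, and the S133A by TGFβ interaction on the TGFβ minus control differences. The fits of TGFβ and of S133A were tested on simulated data with known changes, and those of K, R314A and the interaction were not. A line label pairs its 2 libraries: over all genes, the deviations of these 2 from their treatment means had an r of 0.614 to 0.845, where libraries of different lines reached at most 0.275. Single-line comparisons used genes averaging 5 TPM or more and a 2-fold limit, with no test. Coverage divided by the library's most frequent ratio of coverage to FPKM was added after the data were seen. Other alternatives were other pseudocounts, filters and scalings, FPKM, no trend, no block, an exact Wilcoxon signed-rank test and leaving out each line.

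The members, the lists and the alternatives were chosen with earlier results of these data known. All members could be named. The lowest, median and highest TPM by treatment are given for each role group's most abundant member and for those with its largest and smallest TGFβ difference. The same is given for Eif4a1 and Eif4a2. In the wider list up to 5 calls in each direction are named, plus Eif4ebp1, Eif2ak3, Eef2k and Pdcd4. The called genes of the mTOR group and Eif1a are named as well, chosen after their values were seen. For each CREB change the 2 members with the smallest p are named.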

Additional observations from a re-analysis of the deposited data

Results flagged for a closer look

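Over 123 groups of 7 values (TGFβ libraries, control libraries and differences within lines for each of the 39 members, and the ratios within lines of 6 summed TPM values, those of all members and of 5 role groups), 9 held a library or line farther from the nearest other value than Dixon's 95% limit of 0.568 of the range allows, and chance gives about 1 in 20 such groups. Eif4g3 gave 3 of them: 8.04 TPM in the WT-CREB TGFβ library, with 29.8 to 69.8 TPM in the other lines, 9.18 TPM in the WT-CREB control library, with 33.6 to 71.2 TPM in the others, and a TGFβ minus control difference of -0.51 in R314A-CREB, with -0.23 to -0.027 in the others. WT-CREB control also stood apart for Eif2s2 (347.5 TPM, others 206.6 to 245.9) and Eif5b (70.9 TPM, others 48.4 to 56.5). Eef1a1 was low in the S133A-CREB control library (12320 TPM, others 17740 to 22890) and Eif3e in the KCREB control library (324.8 TPM, others 409.0 to 465.4). Eif2b2 was high in the R314A-CREB TGFβ library (101.2 TPM, others 71.0 to 82.7). The difference of Eif1 was 0.024 in S133A/R314A-CREB and 0.26 to 0.41 in the other lines. As a number, 9 flags in 123 groups are not far above the chance share. Nor are the groups independent, because the TGFβ and control library of a line deviate together (r of 0.614 to 0.845 over all genes).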

How the results depend on the processing

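With the line left out of the model (no replicate block), 9 members rose and 0 fell, against 24 and 1 with it, and 8 genes of the wider list rose and 1 fell, against 28 and 8. Of all 12927 genes tested, 645 rose and 519 fell without the line, against 3110 and 2762 with it. Since each line gives 1 library per treatment, the pairing comes from the design, and the 9 are among the 24. In the other alternatives 22 to 26 members rose, and 21 to 24 of the 24 did so. The number of members that fell was 2 with median-of-ratios scaling, quantile normalization, TPM without mitochondrially encoded genes and, chosen after seeing the data, depth-scaled coverage, Eif4a2 being the second; with each line left out in turn it was 1 to 2, and 23 to 24 rose. In the wider list the falls numbered 4 with the exact Wilcoxon signed-rank test and 5 to 8 with each line left out. The median of the members ran from 0.17 to 0.21 and that of the wider list from 0.13 to 0.19, the median ratio of the summed TPM from 1.14 to 1.19, and no alternative for S133A, K, R314A or the interaction called a member. Signs turned for members near 0: Eef1d was -0.017, -0.046, -0.0012 and -0.011 with median-of-ratios scaling, quantile normalization, FPKM and no mitochondrial genes, and -0.013, -0.020, -0.011 and -0.0057 without the WT-CREB, KCREB, S133A-CREB and S133A/R314A-CREB lines; Eif4h was -0.0077, -0.029 and -0.0022 with the same scalings other than FPKM, and -0.010, -6.64e-05 and -0.0092 without the WT-CREB, R314A-CREB and S133A-KCREB lines. Without single lines Eif3e was 0.013 to 0.021, Eif4b 0.0051, Eif4e 0.074 to 0.16 and Eif1ax 0.0014, 0.0059 or 0.0085. Among single genes a call was lost in 50 and gained in 14 combinations of gene and alternative. The causes were not tested. Each line and treatment has 1 library, the depth in reads is unknown, and RNA levels do not measure translation.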
